A study of Arabidopsis thaliana with 14 samples.

Results

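The proteasome genes of Arabidopsis thaliana were described by the H3K36me3 mark on their bodies. They were taken as the nuclear protein-coding genes of the RefSeq annotation (TAIR10.1) whose product holds the word proteasome, and these were 45 of 27444 genes. The mark, histone H3 trimethylated at lysine 36, was mapped by chromatin immunoprecipitation and sequencing in shoots of the accession Col-0, trimmed of leaves to enrich the shoot apical meristem. All plants had grown for 5 weeks at 16 °C with 8 h of light and 16 h of dark a day, and were either kept at 16 °C or moved to 25 °C for 1 day. From 0.5 g of tissue a sample, 4 H3K36me3 and 3 H3 samples were made per temperature, 14 in all, and no mutant or chemical treatment is named. The deposited results are 1 list of H3K36me3 regions per temperature, 50167 nuclear regions at 16 °C and 52432 at 25 °C, each pooled over its replicates. One of the pooled samples at 25 °C, replicate A, is titled H3K36me3 but carries the H3 antibody in its antibody label, and its share in the list cannot be told apart. No value per sample was at hand, so no difference given here has a replicate check, and neither the tissue nor that label was checked against markers.

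The proteasome breaks down proteins that have been tagged with ubiquitin. Its core particle (20S) is a barrel of stacked rings, with alpha subunits in the outer rings, which gate the entry, and beta subunits in the inner rings, some of which cut the protein chain. Its regulatory particle (19S) binds the tagged protein, removes the ubiquitin, and unfolds and threads the chain, with RPT subunits as ATPases and RPN subunits as the other parts. H3K36me3 is known as a mark that is laid down on transcribed gene bodies. In Arabidopsis most core subunits are encoded by a pair of genes, named for the subunit (PAA to PAG for alpha, PBA to PBG for beta).

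The word used to choose the genes took 18 core and 12 regulatory genes, so that 30 of the 45 are subunit genes. The other 15 comprise 4 subunits of the COP9 signalosome, a relative of the 19S lid that removes the NEDD8 tag from ubiquitin ligases, along with assembly factors, the activator PA200, inhibitor-like proteins and further proteins with the PCI domain of the lid. The word also missed subunits that RefSeq names by family. A list of subunit loci drawn up from general knowledge holds 24 core and 32 regulatory loci, of which 6 and 22 lie outside the choice, among them most of the RPT genes, and it is given beside the 45 where it differs.

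Sequences are shown first for the 2 pairs that differed most in mark at 16 °C among the 9 pairs of genes for the same subunit with both genes among the 45. PAD1 and PAD2 both encode the alpha4 subunit, and PBD1 and PBD2 both encode beta4. Below are the first 150 coding bases of each gene from its start codon, read from the TAIR10.1 genome on the coding strand, 5′ to 3′. Capitals mark bases inside an H3K36me3 region at 16 °C.
PAD1: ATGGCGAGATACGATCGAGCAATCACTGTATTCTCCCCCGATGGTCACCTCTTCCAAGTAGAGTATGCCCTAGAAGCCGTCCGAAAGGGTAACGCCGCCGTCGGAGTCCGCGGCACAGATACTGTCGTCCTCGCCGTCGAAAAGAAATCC
PAD2: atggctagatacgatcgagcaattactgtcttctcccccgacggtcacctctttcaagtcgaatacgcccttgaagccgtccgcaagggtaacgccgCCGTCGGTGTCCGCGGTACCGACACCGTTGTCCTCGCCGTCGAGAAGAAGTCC
PBD1: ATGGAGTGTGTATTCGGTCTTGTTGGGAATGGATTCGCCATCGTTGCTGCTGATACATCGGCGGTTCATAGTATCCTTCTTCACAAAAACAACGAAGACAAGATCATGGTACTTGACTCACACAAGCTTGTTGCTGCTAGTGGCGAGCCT
PBD2: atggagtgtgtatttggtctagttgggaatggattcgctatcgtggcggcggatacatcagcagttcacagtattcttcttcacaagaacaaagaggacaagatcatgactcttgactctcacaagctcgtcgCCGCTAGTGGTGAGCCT

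The stretches lie at chr3:19031086-19031235 (PAD1, plus strand), chr5:26438528-26438677 (PAD2, minus strand), chr3:8010625-8010774 (PBD1, minus strand) and chr4:8500398-8500547 (PBD2, plus strand), all in the first coding exon. The PAD stretches differ at 18 of 150 bases and the PBD stretches at 21. At 16 °C all 150 bases of PAD1 and of PBD1 lay inside a region, against 53 bases of PAD2 and 17 of PBD2. At 25 °C the counts were again 150 for PAD1 and PBD1, and 93 for PAD2 and 47 for PBD2. Over whole gene bodies none of the 9 pairs with both genes among the 45 shared a run of 50 identical bases, and 42 of the 45 genes held no run of 50 bases found elsewhere in the nuclear genome. The methods of the study give single-end reads of 50 bp, so full-length reads that match exactly tell these copies apart.

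Proteasome genes nearly all carried the mark at both temperatures. A gene was called marked where a region overlapped its body, from annotated start to end, by at least 1 bp. At 16 °C 43 of the 45 genes were marked (95.6%, Wilson 95% interval 85.2 to 98.8%, counting error only), against 56.0% of all genes. The count at 25 °C was again 43, against 59.5% of all genes. In both lists 42 were marked, against 50.2% of all genes. None of the 18 core genes lacked a region at either temperature, as was true of all 24 core loci of the longer list. Of the latter, AT4G15165 (alpha3) had only 1 region of 50 bp at 16 °C, over 3.22% of its body. At 25 °C this gene had 2 regions over 14.8% of its body. Regions were present in 12 of 12 regulatory genes at 16 °C and in 11 at 25 °C. In the longer regulatory list 31 of 32 loci were marked at each temperature, and RPN12b, the second copy of a lid gene, had no region in either list.

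The exceptions among the 45 were a gene for a proteasome inhibitor-like protein, a maturation factor gene and a short regulatory gene. AT1G48530, the inhibitor-like gene, was the 1 gene with no region in either list, where 34.7% of all genes had none. AT4G08140, annotated as a 26S non-ATPase regulatory subunit-like gene and only 468 bp long, was the 1 gene marked at 16 °C alone, against 5.78% of all genes. AT1G62920, annotated as a proteasome maturation factor, was the 1 gene marked at 25 °C alone, against 9.32% of all genes. The region of AT4G08140 was 50 bp wide with a height of 228, and that of AT1G62920 was 70 bp wide with a height of 237. Height is the highest read coverage in a region, and the lowest in the nuclear lists were 179.4 and 179.3. Both regions lie in introns, and they are shown because they are all the mark these genes carried. Capitals give the region, with 20 bases on each side in lower case.
AT4G08140: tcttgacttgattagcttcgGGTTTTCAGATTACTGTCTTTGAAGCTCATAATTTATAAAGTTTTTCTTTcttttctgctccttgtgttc
AT1G62920: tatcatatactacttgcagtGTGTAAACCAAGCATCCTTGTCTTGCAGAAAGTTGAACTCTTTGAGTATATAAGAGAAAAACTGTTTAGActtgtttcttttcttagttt

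They were read from TAIR10.1 on the plus strand, at chr4:5135731-5135820 and chr1:23304881-23304990. Both calls rest on a single narrow region near the lower end of the heights.

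The share of each gene body inside regions, called the covered percent, was then compared between the temperatures. The median over the 45 genes was 30.4% at 16 °C and 40.9% at 25 °C, against 4.22% and 7.37% over all genes. The covered percent was larger at 25 °C in 34 of the 45 and smaller in 9, against 47.3% and 17.2% of all genes. It was larger by 10 percentage points or more in 24, against 24.2% of all genes, and smaller by as much in 3, against 3.64%. Those shares of all genes include the genes with no region in either list. Among the 13775 genes marked in both lists, 75.8% had the larger covered percent at 25 °C, against 78.6% of the 42 proteasome genes marked in both, and the median differences were 7.83 and 12.7 points. Counted in bases, the part of the proteasome genes inside regions was 1.33-fold larger at 25 °C (41877 bp at 16 °C and 55556 bp at 25 °C). The same ratio over all genes was 1.36, so that the ratio of the proteasome genes was no larger than that of the genome.

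**Figure D1:**
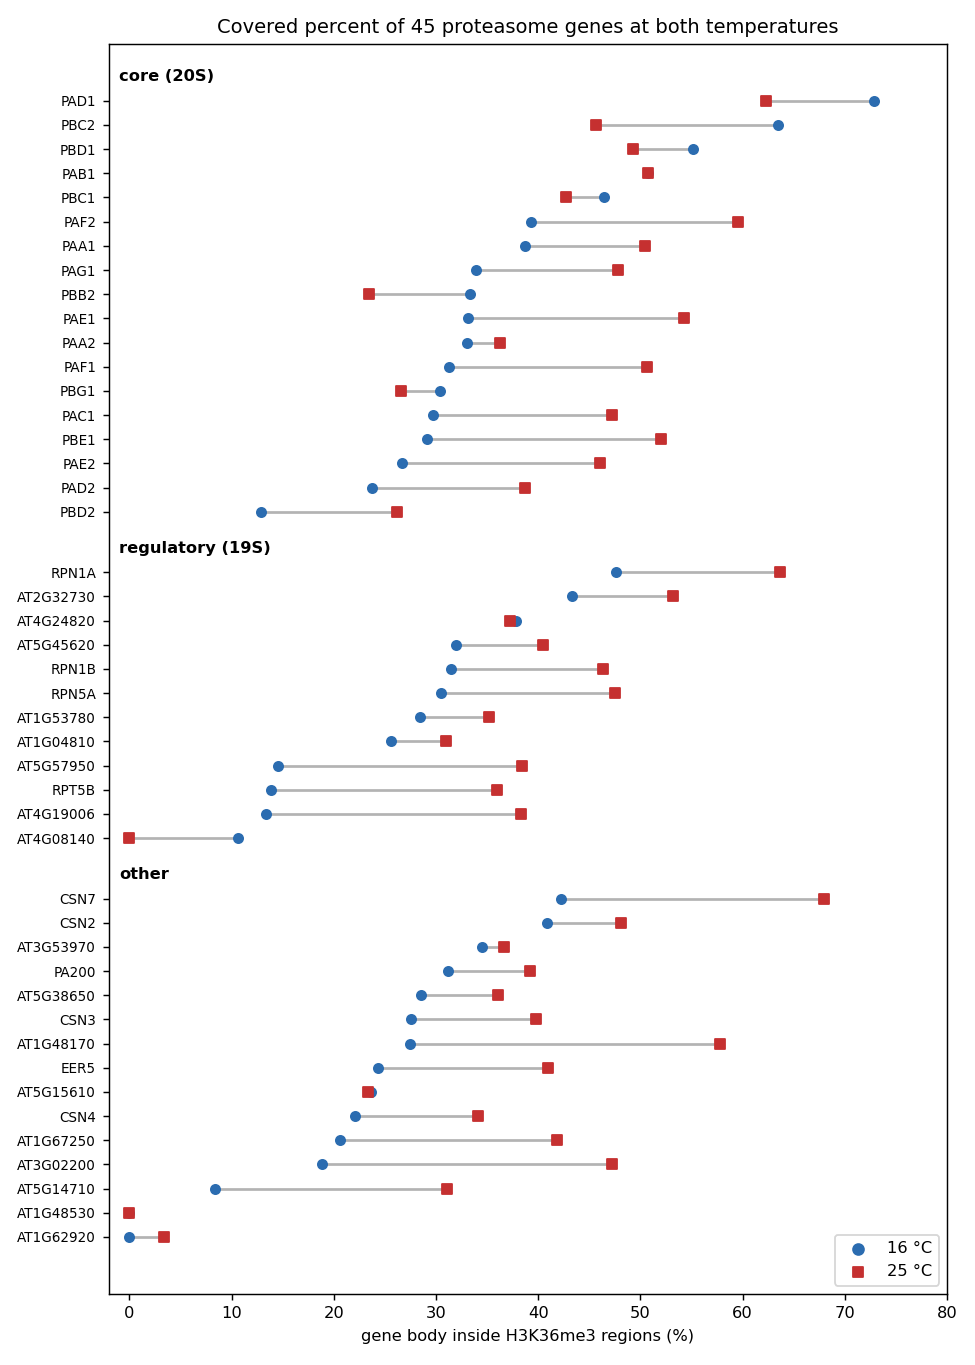
Covered percent of each of the 45 proteasome genes at 16 °C (blue circles) and 25 °C (red squares), in percent of the gene body, by class and in order of the value at 16 °C. The red square lies to the right in 34 genes and to the left in 9, and each point is 1 value from a pooled list, with no error.

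Core genes were covered over more of their length than regulatory genes, by a small margin. The 18 core genes had a median covered percent of 33.2% at 16 °C and 47.5% at 25 °C. In the 12 regulatory genes the medians were 29.4% and 38.4%. The classes overlapped widely, with core genes between 12.9 and 72.9% at 16 °C and regulatory genes between 10.7 and 47.6%. At 25 °C core genes ranged from 23.5 to 62.2% and regulatory genes from 0 to 63.7%. The margin between the medians was 3.82 points at 16 °C and 9.12 at 25 °C, and with the longer lists of 24 and 32 loci it was 1.07 and 4.91 points. The regulatory genes were longer, with a median of 3721.5 bp against 2424.5 bp for the core, and the part of length in the margin was not tested. The median differences between temperatures were close, 12.5 points for the core and 12.4 for the regulatory genes. By other measures the classes were less alike. In the core 11 genes were higher at 25 °C and 6 lower, against 10 and 2 of the 12 regulatory genes. Of all genes marked in both lists, 75.8% were higher and 22.7% lower. The bases inside regions were 1.18-fold more at 25 °C in the core and 1.38-fold in the regulatory genes, against 1.36-fold over all genes.

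**Figure D2:**
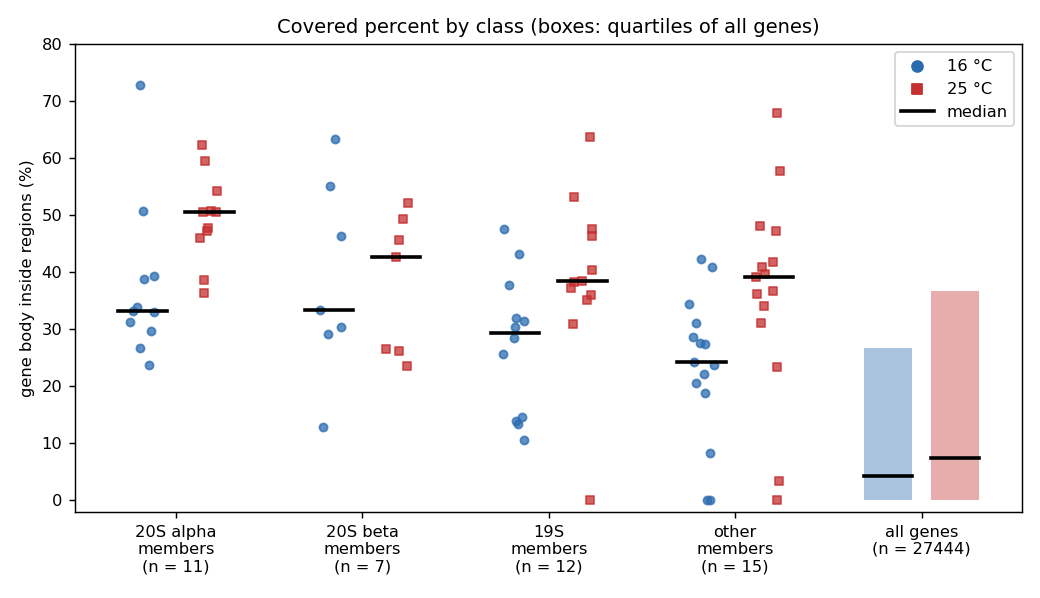
Covered percent in percent of the gene body at 16 °C (blue) and 25 °C (red) for alpha, beta, regulatory and other proteasome genes, 1 point a gene with the median as a black bar. Boxes give the quartiles of all 27444 genes, whose medians of 4.22 and 7.37% lie below those of each class.

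Within the core particle the alpha genes and the beta genes differed in direction. Of the 11 alpha genes 9 had the larger covered percent at 25 °C, 1 the smaller and 1 the same, with medians of 33.2 and 50.5%. Of the 7 beta genes 2 had the larger covered percent at 25 °C and 5 the smaller, with medians of 33.3 and 42.7%. Of all genes marked in both lists, 75.8% had the larger covered percent at 25 °C and 22.7% the smaller. The alpha share of 81.8% with the larger value thus lay near that of all such genes. The bases inside regions were 1.30-fold more at 25 °C in the alpha genes and 0.995-fold in the beta genes, against 1.36-fold over all genes. The longer list gave 11 of 13 alpha loci higher and 1 lower, and 5 of 11 beta loci higher and 6 lower. This split was chosen after the values were seen. The median difference in the beta genes was -3.89 points, but with the stronger regions alone it was 0.417 points, and over the first 1000 bp 4.10 points, so its direction depends on the regions and the stretch that are counted.

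The 3 core genes with the most mark at 16 °C had less at 25 °C. PAD1 (alpha4) was the most covered, with 72.9% of its 2209 bp at 16 °C and 62.2% at 25 °C. PBC2 (beta3) was covered over 63.4% and 45.7%, the largest loss in the core. PBD1 (beta4) had 55.2% and 49.3%. PAB1 (alpha2) had 50.7% at both temperatures, although its regions numbered 6 and 5. All 4 were well above the median of all genes at both temperatures, and the order at 16 °C used the same values that are compared here.

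In PAD1 and PBD1 the mark was spread over several regions at 16 °C and lay in 1 region at 25 °C. PAD1 held regions of 500, 980 and 130 bp at 16 °C, the last at 1785 to 1914 bp from the gene start, and 1 region of 1430 bp at 25 °C that ended at 1374 bp. PBD1 held regions of 490, 160 and 80 bp at 16 °C and 1 of 670 bp at 25 °C. PBC2 went from 5 regions to 4, and its widest regions measured 520 and 760 bp. In all 3 genes the widest region was wider at 25 °C, while sequence further from the start was no longer inside a region.

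PBB2, a gene for the catalytic subunit beta2, was covered over 33.3% at 16 °C and 23.5% at 25 °C. Its partner PBB1, which the product word missed, had 27.1% and 53.9%. PBG1, the beta7 gene, had 30.4% in 1 region of 860 bp at 16 °C, and 26.5% in 4 regions of 60 to 270 bp at 25 °C.

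The largest gains in the core were in PBE1, PAE1, PAF2 and PAF1. PBE1, a gene for the catalytic subunit beta5, was covered over 29.1% at 16 °C and 52.0% at 25 °C, and its widest region was 580 bp and 1250 bp wide. PAE1 (alpha5) had 33.2% and 54.3%. PAF2 and PAF1 (alpha6) had 39.3 and 59.5%, and 31.2 and 50.6%. Both genes of the alpha5 and alpha6 pairs were therefore higher at 25 °C by about the same amount, since PAE2 had 26.7% and 46.02%.

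**Figure D3:**
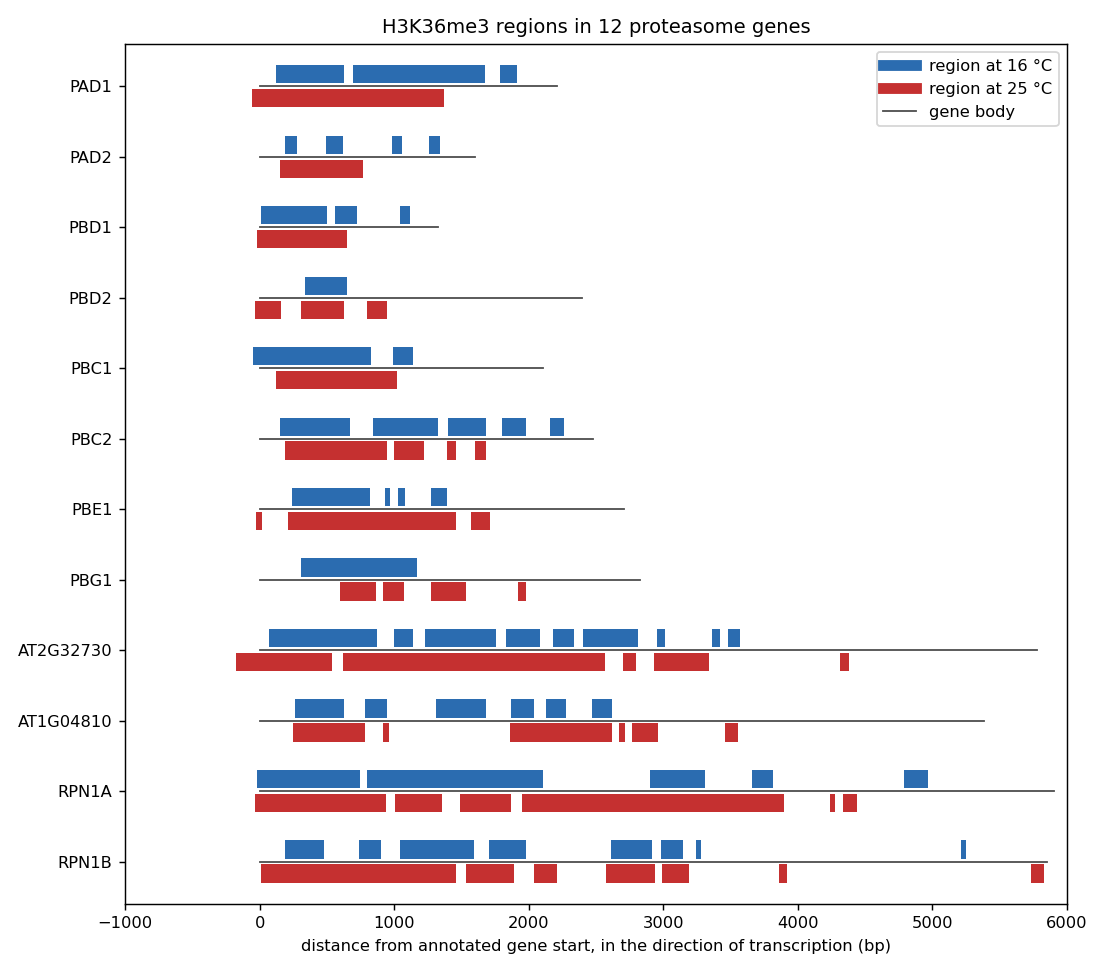
H3K36me3 regions at 16 °C (blue, above the line) and 25 °C (red, below) along 12 proteasome genes, by distance in bp from the annotated gene start. PAD1 and PBD1 each have 3 regions at 16 °C and 1 at 25 °C, and in RPN1A the widest region is 1310 bp at 16 °C and 1950 bp at 25 °C.

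Pairs of genes for the same subunit were compared, since each pair supplies the same position in the particle. Over the 9 pairs with both genes among the 45, the covered percents differed by a median of 17.0 points at 16 °C and 14.2 at 25 °C. In 3 pairs the difference reached 20 points at either temperature. PAD1 and PAD2 stood 49.2 points apart at 16 °C, at 72.9 and 23.7%, and 23.5 points at 25 °C, at 62.2 and 38.7%. PBD1 and PBD2 were 42.2 points apart at 16 °C, at 55.2 and 12.9%, and 23.1 points at 25 °C, at 49.3 and 26.2%. In both pairs the gene with less mark had more at 25 °C and its partner had less, which narrowed the gap. These 2 pairs had the largest gaps of the 9 at 16 °C, and that ranking used the same values that are compared here. The third pair encodes RPN2, a large scaffold of the regulatory particle, and there AT2G32730 was covered over 43.3 and 53.2% and AT1G04810 over 25.6 and 31.0%. Of the 9 pairs, those for alpha1, alpha5, alpha6, RPN1 and RPN2 had a wider gap at 25 °C. Those for alpha4, beta3, beta4 and RPN9 had a narrower one. Among all 23 pairs of the longer 20S and 19S lists, 10 differed by 20 points or more, 12 had both genes higher at 25 °C and 8 had the genes moving in opposite directions.

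In the coding sequence of PAD1 and PAD2, 84.7% of the 753 bases were identical by position. The gene bodies differ more in size, with 2209 bp for PAD1 and 1602 bp for PAD2, and 1323 bp for PBD1 and 2397 bp for PBD2. A covered percent thus has a different base in the genes of a pair.

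Of the regulatory genes 10 of 12 (83.3%) had the larger covered percent at 25 °C, against 75.8% of all genes marked in both lists. RPN1A, a large scaffold that receives ubiquitin-like domains of shuttle proteins, was the most covered, with 47.6% at 16 °C and 63.7% at 25 °C. Its partner RPN1B had 31.4 and 46.3%. RPN5A, a lid subunit, had 30.5 and 47.6%, with 5 regions in each list. The RPN2 gene AT2G32730 had 9 regions of up to 800 bp at 16 °C and 5 of up to 1950 bp at 25 °C.

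The largest gains among the regulatory genes were in AT4G19006, AT5G57950 and RPT5B, which had little mark at 16 °C. A gain is computed from that same value, which favours genes with low values there. RPN5A, with the next largest gain, began at 30.5%, and AT4G08140, with 10.7% at 16 °C, had 0% at 25 °C. AT4G19006, annotated as a proteasome component (PCI) domain protein and listed as RPN9, was covered over 13.4% at 16 °C and 38.4% at 25 °C. Its partner AT5G45620 had 32.0 and 40.4%, so the pair was 18.6 points apart at 16 °C and 2.07 at 25 °C. AT5G57950, annotated as a 26S regulatory subunit, had 14.6 and 38.5%. RPT5B, an ATPase of the ring that threads the chain, had 13.9 and 35.97%, and its partner RPT5A, outside the choice, had 34.7 and 33.3%. AT1G53780, annotated as a regulatory ATPase, had 28.4 and 35.2%.

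The 2 regulatory genes that were lower at 25 °C were AT4G08140, with 10.7 and 0%, and AT4G24820, annotated as Rpn7, with 37.8 and 37.3%. The latter difference is under 1 point.

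The 15 other genes had median covered percents of 24.3 and 39.2%, with 13 higher at 25 °C and 1 lower. All 4 signalosome genes among them were higher. CSN7 had 42.3 and 67.9%, the highest value of the 45 at 25 °C, CSN2 had 40.9 and 48.1%, CSN3 had 27.6 and 39.8%, and CSN4 had 22.1 and 34.1%. In the list of 10 signalosome loci, which includes CSN5A and CSN5B, the catalytic subunits, all 10 were higher at 25 °C, with medians of 30.3 and 51.0%. Of all genes marked in both lists, 75.8% were higher.

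Assembly factors help the core particle form. The chaperone gene AT1G48170 had 27.5 and 57.8%, and the chaperone-like gene AT5G14710 had 8.38 and 31.1%. The widest region of AT1G48170 at 25 °C ran from -802 to 637 bp from the gene start, so part of it lies outside the gene, which overlaps another annotated gene. UMP1 is known in yeast as a factor that matures the core particle and is then destroyed by it. The UMP1 genes AT1G67250 and AT5G38650 had 20.6 and 41.8%, and 28.6 and 36.1%, and the maturation factor gene AT1G62920 had 0 and 3.39%. These 5 genes were all higher at 25 °C, with 1378 and 2728 bp inside regions, a ratio of 1.98. The ratio over all genes was 1.36. Of all genes 47.3% were higher, and of the genes marked in both lists 75.8% were higher.

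PA200, which activates the core particle, was covered over 31.1 and 39.2% of its 10729 bp. The inhibitor-like gene AT3G53970 had 34.5 and 36.7%, whereas AT1G48530 had no region. EER5, annotated as a proteasome family protein, had 24.3 and 40.9%. The PCI domain gene AT3G02200 had 18.9 and 47.2%, and AT5G15610 had 23.7 and 23.3%, the 1 gene outside both subunit classes with a lower value at 25 °C.

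The mark lay in the first part of the genes. With the gene body cut into 5 equal parts counted from the start, the mean covered percent of core genes at 16 °C was 61.3, 73.3, 30.9, 18.6 and 6.00%. At 25 °C it was 68.5, 84.1, 56.8, 13.2 and 2.33%. The middle part therefore held the largest difference. By mean the last 2 parts held less at 25 °C, whereas the median of the fourth part was 0 at 16 °C and 10.3% at 25 °C. In regulatory genes the middle part went from 23.3 to 47.7% and the first from 51.9 to 66.9%, and the last 2 parts had 3.25 and 3.35% at 16 °C and 7.90 and 6.59% at 25 °C. Over all genes the middle part had 13.6 and 20.7%, and the last 2 parts had 5.03 and 2.73% at 16 °C and 7.61 and 3.59% at 25 °C.

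Every core gene had a region between 400 and 700 bp from its start at 16 °C, in each of the 100 bp bins of that stretch, where between 37.7 and 38.8% of all genes had one. At 25 °C all 18 had one in the bins from 500 to 700 bp, against 44.4% of all genes in each bin. In the regulatory genes the bins from 600 to 800 bp were filled in all 11 genes that reach so far at 25 °C. Over all genes the shares in those bins were 44.4 and 43.8%. At 16 °C 7 and 8 of the 11 regulatory genes had a region there. The bins named were picked because every gene that reaches so far had a region in them. The first 1000 bp were covered to a median of 65.5 and 75.4% in core genes and 49.5 and 71.8% in regulatory genes, against 4 and 9% over all genes. With the longer lists the order was the other way, at 64.4 and 76.7% for core loci and 65 and 80.8% for regulatory loci.

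**Figure D4:**
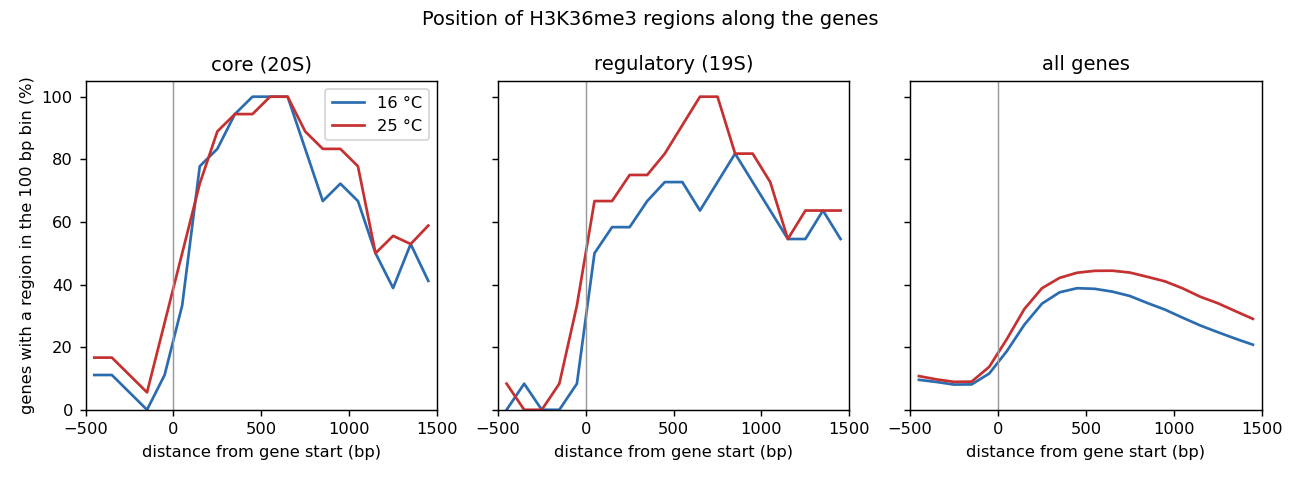
Share of genes with an H3K36me3 region in each 100 bp bin, in percent, against the distance in bp from the annotated gene start, for core genes, regulatory genes and all genes at 16 °C (blue) and 25 °C (red). The core genes reach 100% between 400 and 700 bp at 16 °C, and all genes peak at 38.8% at 16 °C and 44.4% at 25 °C.

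By kind of sequence, introns of the 45 genes had 38.5% of their bases inside regions at 16 °C and 48.7% at 25 °C, and coding sequence had 29.8 and 42.7%. In the 5′ UTRs the shares were 39.5 and 49.2%, and in the 3′ UTRs 3.45 and 4.17%. Over all genes introns had 21.7 and 29.8%, coding sequence 16.6 and 23.0%, 5′ UTRs 21.4 and 26.1%, and 3′ UTRs 3.35 and 4.27%. The 3′ UTRs of the proteasome genes were thus covered about as little as those of all genes, and introns and 5′ UTRs were covered more than coding sequence in both. All 45 genes had at least 1 intron, with a median of 8 against 3 over all genes.

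Regions in the proteasome genes were wider at 25 °C but not more numerous. The 45 genes held 157 regions at 16 °C and 154 at 25 °C, with median widths of 160 and 210 bp, against 150 and 160 bp for the regions in all genes. The widest region of a gene passed 1000 bp in 3 genes at 16 °C, against 4.22% of all genes, and in 13 at 25 °C, against 11.1%. The 3 were AT4G24820, RPN1A and CSN3, and the 13 comprised 3 core, 5 regulatory and 5 other genes. Of the regions at 16 °C 79.6% overlapped a region at 25 °C by 1 bp or more, and of those at 25 °C 64.3% overlapped one at 16 °C. In all genes the shares were 69.5 and 54.0%. With 50% of both regions required, the shares in the proteasome genes were 22.9 and 24.0%, against 20.6 and 19.5% in all genes.

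Gene length was set beside the values, since longer genes were more often marked. In the 2000 to 3000 bp range, which holds 24 of the 45 genes, the medians were 32.5 and 44.2%, against 13.4 and 22.5% for the 7430 genes of that length. Across the 45 genes the covered percents at 16 °C and 25 °C had a Spearman correlation of 0.66, against 0.87 across all genes, and length had one of 0.26 with the value at 16 °C and 0.11 with that at 25 °C. These are descriptions across genes, which share their libraries and are no independent replicates.

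**Figure D5:**
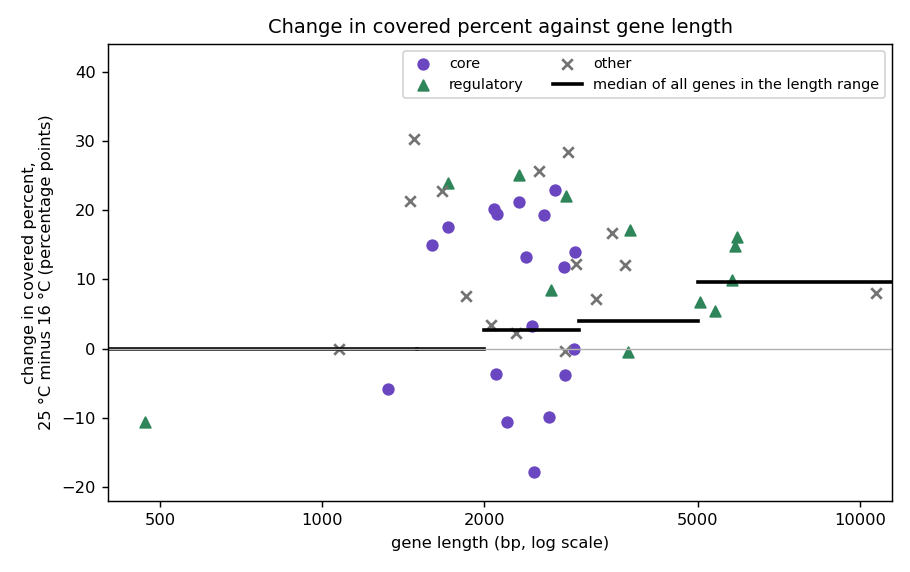
Difference in covered percent (25 °C minus 16 °C, in percentage points) against gene length in bp on a log scale for core, regulatory and other proteasome genes, with the median of all genes in each length range as black bars. Between 2000 and 3000 bp the median of all genes is 2.73 points and that of the 24 proteasome genes 11.96 points, with core genes on both sides of 0.

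Of the 45 genes 14 overlap another annotated gene, whose reads cannot be told apart from theirs. Without them the 31 remaining genes had 24 higher and 5 lower at 25 °C. Because the covered percent was larger at 25 °C over all genes too, a difference in sequencing depth or in the calling of regions between the lists cannot be told apart from a difference in the mark.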

How the data were processed

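Reads had been mapped to TAIR10 by the authors (Bowtie2 in the submitters' processing notes, Bowtie in the study's methods, no version) and called regions with the Dpeak function of DANPOS2, reads of 50 bp extended to 150 bp, replicates pooled. None of the sources used here says whether the H3 libraries entered the calling. The deposited columns used were start, end, height (a signal, the highest read coverage) and the −log10 of its p-value, as the authors gave them. Depth per sample is unknown. Deposited starts were taken as counting from 0. Gene models were those of RefSeq TAIR10.1, whose 5 nuclear chromosomes were used with the TAIR10 coordinates. Classes came from a list written from general knowledge and otherwise from the product. The genes and lists were chosen with earlier results of these data known. Named were, in each subunit class, the 4 highest means, the 4 largest rises and falls, genes without a region, pairs 20 points or more apart, and all other genes outside both classes. A few further genes were named beside their partner. No test was run, since each list pools its replicates. Intervals of shares are Wilson 95%, and those of medians order-statistic 95% intervals over genes. Calculations used Python 3.11.15, numpy 2.4.6, pandas 2.3.3 and scipy 1.17.1 and were tested on simulated data. There were 0 unused columns of per-sample values.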

Additional observations from a re-analysis of the deposited data

How the results depend on the processing

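Of 58 values recomputed under 8 alternatives, 49 stayed close to the main value, 9 moved and 0 changed sign. Only the median differences could change sign, since counts, shares and covered percents cannot be negative. Cutting the lists to equal numbers left the shorter list of 16 °C whole, so its values there were fixed. The alpha and beta values given below are not among the 58. Close means within the order-statistic 95% interval of the main median over genes, or within 1.5 times for a count of marked genes. With 43 of 45 genes marked, a count of these genes could leave that range only by a large fall. These counts could therefore hardly move, and their staying close says little. The counts of 29 of 31 genes without overlap and 55 of 56 listed loci come from other sets of genes. The median difference of the 45 genes lay between 9.90 and 12.3 points in the alternatives it was computed for. The core median was above the regulatory median at both temperatures in each alternative it was computed for. Over the first 1000 bp of the longer lists it was below, with 64.4 and 76.7% for core loci and 65 and 80.8% for regulatory loci. When the weaker regions by p-value were left out, the median of the 45 genes at 16 °C was 25.6%. Over the first 1000 bp the medians at 16 and 25 °C were 62.0 and 73.5% for the 45 genes, 65.5 and 75.4% for core genes, and 49.5 and 71.8% for regulatory genes, since the mark lay in the first part of the genes. Shared regions with a reciprocal overlap of 50% made up 22.9 and 24.0%. For the alpha and beta genes, looked at apart after seeing the data, the alpha median difference lay between 13.9 and 21.1 points, whereas the beta median difference of -3.89 points became 0.417 points with the stronger regions and 4.10 points over the first 1000 bp, and the cause was not tested. No paired analysis was possible because each deposited list pools its replicates, and leaving out a replicate was not possible for the same reason.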

Other observations

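Over whole gene bodies, genes that deliver proteins to the proteasome had lower median covered percents than the core genes. They were longer, with a median of 3360 bp against 2424.5 bp for the core. Over the first 1000 bp their medians were 64.5 and 71.5%, against 65.5 and 75.4% for the core. The part of length was not tested. Of 17 such loci 16 were marked at each temperature, against 56.0 and 59.5% of all genes, with medians of 25.7 and 37.0%. At 25 °C 14 were higher and 2 lower, and of all genes marked in both lists 75.8% were higher. UBQ10, a polyubiquitin gene, had no region in either list. UCH2, a ubiquitin carboxyl-terminal hydrolase, had 5.77% at 16 °C and 37.0% at 25 °C. CDC48A, which extracts ubiquitin-tagged proteins, had 26.6 and 28.4%. The shuttle genes DSK2A and DSK2B had 42.6 and 53.6%, and 44.9 and 53.3%.

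Among subunit loci that the product word missed, MEE34, listed as a second RPN8 gene, had 5.47 and 4.10%, while its partner RPN8A had 37.5 and 42.4%. DSS1(V), listed as RPN15, had 15.0 and 56.5%. AT1G75990, listed as RPN3, had 29.4 and 16.8%, while its partner EMB2719 had 32.3 and 54.7%.

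Of the 45 genes 4 are in the study's list of genes whose splicing differed after the temperature change (CSN7, AT1G53780, AT1G62920 and AT5G15610), and 0 are among its differentially expressed genes of day 1. The shares over all genes were 1.76% and 4.54%.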
